A study of Mus musculus with 10 samples.

Results

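The regions described here were called open in mouse embryonic stem cells (ESC) and in none of the other cell types of a FAIRE-seq series. Signal outside the called sites was not examined. FAIRE (formaldehyde-assisted isolation of regulatory elements) crosslinks chromatin, shears it and recovers the DNA that stays in the aqueous phase on phenol and chloroform extraction. Sites of the 4 deposited lists on the 19 autosomes were merged where they shared 1 bp or more, which gave 1121520 regions. Of these, 174760 (15.6%, exact 95% interval 15.5 to 15.6) held a site of the ESC list and of no other list. Members were thus chosen by the deposited site calls, namely presence in 1 list and absence from the other 3, and neither is a finding. Each ESC-only region proved to be a single ESC site, so that the region and the site have the same ends, width and score.

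The ESC were E14 cells grown without serum with LIF, a MEK inhibitor (1 uM) and a GSK3 inhibitor (3 uM). The other lists come from epiblast stem cells (EpiSC) of the E3 line, neural stem cells (NSC, labelled as ES-derived neural progenitors) and embryonic fibroblasts (MEF). EpiSC were expanded on feeder fibroblasts with FGF2 and taken off them before crosslinking, NSC were cultured with FGF2 and EGF, and MEF in serum. E14 and E3 are single lines. The source name given for the MEF samples is NSC chromatin; they are taken as fibroblasts here from the title and the cell type. Each group holds 2 samples and each cell type is represented by 1 list, filed with replicate 2, so that no difference between cell types has a replicate check and no test between them was possible. Read depth is unknown, and a list can be longer because its library was deeper. The genomic control libraries were not analysed here.

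Regulatory DNA such as promoters and enhancers loses or loosens its nucleosomes when transcription factors bind, and FAIRE recovers such DNA. ESC in MEK and GSK3 inhibitors are held in the ground state of pluripotency, which resembles the epiblast before implantation. EpiSC stand for the primed state after implantation. Both states share the factors Oct4 and Sox2, while the enhancers in use differ widely between them.

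Regions of ESC alone were the largest class of ESC-holding regions by number of lists. Of 405430 regions that held ESC sites, 43.1% (exact 95% interval 43.0 to 43.3, counting error only) were ESC-only. A further 28.4% were shared with 1 other list, 17.2% with 2 and 11.3% with all 3. EpiSC was the list most often found in ESC-holding regions, in 39.4% of them, against 32.3% for NSC and 25.1% for MEF. The share of regions of its own lay between that of EpiSC (33.0% of EpiSC-holding regions, 118716 regions) and those of MEF (45.5%, 182048) and NSC (50.02%, 262424). ESC-only regions covered 72.6 Mb, or 32.1% of the 226 Mb covered by autosomal ESC sites, whereas they made up 39.8% of the 438802 sites.

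ESC-only sites were narrower and had lower scores than ESC sites shared with other lists. Their median width was 328 bp (quartiles 221 and 502), against 411 bp (265 and 696) for the 264042 shared ESC sites. The narrowest was 15 bp and the widest 7074 bp. The score, computed by the authors and without a stated unit, had a median of 2.84 (quartiles 1.72 and 4.26) in ESC-only sites, against 4.005 (2.31 and 6.925) in shared ones. ESC sites shared with NSC alone (median 333 bp, score 3.25) and with MEF alone (349 bp, 3.26) were closer to ESC-only sites than those shared with EpiSC alone (419 bp, 3.81). Sites in all 4 lists stood farthest away, with 514 bp and 5.62. A wider site has more bases in which another list can overlap it, so width and sharing are linked by construction.

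The scores of ESC-only sites had a pair of peaks. The largest class of 0.25 score units lay from 1.5 to 1.75 and held 14.6% of ESC-only sites, and a lower peak from 3 to 3.25 held 5.71%. Between them, the class from 2.5 to 2.75 held 3.63%. Shared ESC sites had peaks of 8.24% at 1.5 to 1.75 and 4.33% at 3.25 to 3.5, and a broad shoulder near 7. The class from 7.25 to 7.5 held 0.910% of ESC-only and 1.65% of shared sites, and scores of 10 or more were held by 1.43% of ESC-only and 8.67% of shared sites. Below 2.5 lay 44.7% of ESC-only and 27.6% of shared sites. Among ESC-only sites the share of low scores was highest at intermediate widths. A score under 2.5 was seen in 54.5% of those from 200 bp to under 300 bp, in 35.4% of those under 100 bp and in 3.41% of the 821 sites of 2 kb or more, whose median score was 6.59.

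**Figure D1:**
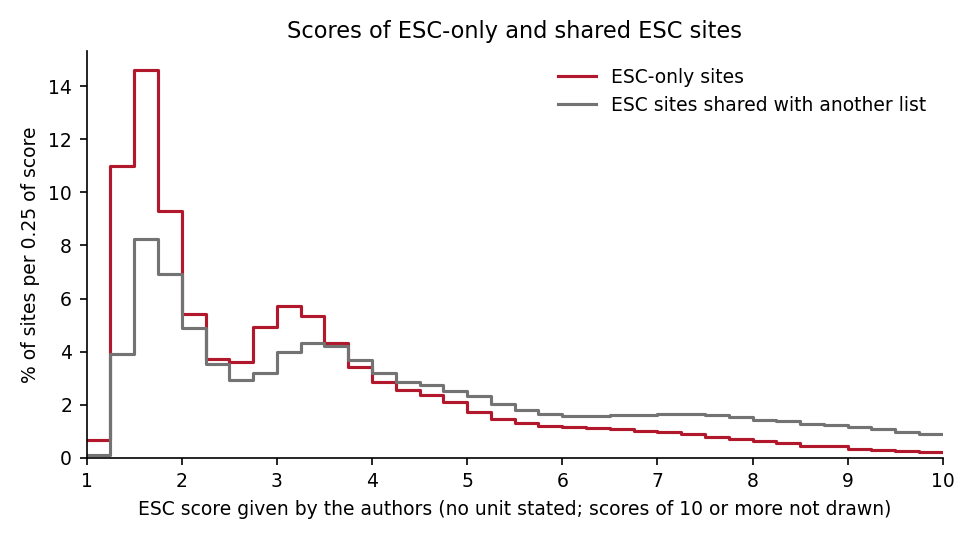
Percentage of sites (y axis) in each class of 0.25 units of the authors' ESC score (x axis, no unit stated), for ESC-only sites (red) and ESC sites shared with another list (grey). Both have a peak from 1.5 to 1.75 and a lower one, from 3 to 3.25 in ESC-only and from 3.25 to 3.5 in shared sites, and 44.7% of ESC-only against 27.6% of shared sites lie below 2.5.

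The share of ESC sites that were ESC-only was lower at higher scores, though not at every step. With all ESC sites put into 10 classes of equal size by score, 63.4% were ESC-only in the lowest class and 12.5% in the highest, where 78.6% had an EpiSC site in the same region and 42.8% were in all 4 lists. In between the share was 44.5% in the fourth class and 47.7% in the fifth, the class of scores from 2.91 to 3.45. Among sites of 250 to 350 bp alone, a setting chosen after seeing the data, the share was 67.4% in the lowest class, 36.7% in the fifth, 48.4% in the sixth and 25.9% in the highest. Narrow and wide sites differed less than low and high scores: 52.3% of the narrowest 10% of ESC sites (up to 172 bp) and 18.9% of the widest 10% (1013 bp or more) were ESC-only.

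**Figure D2:**
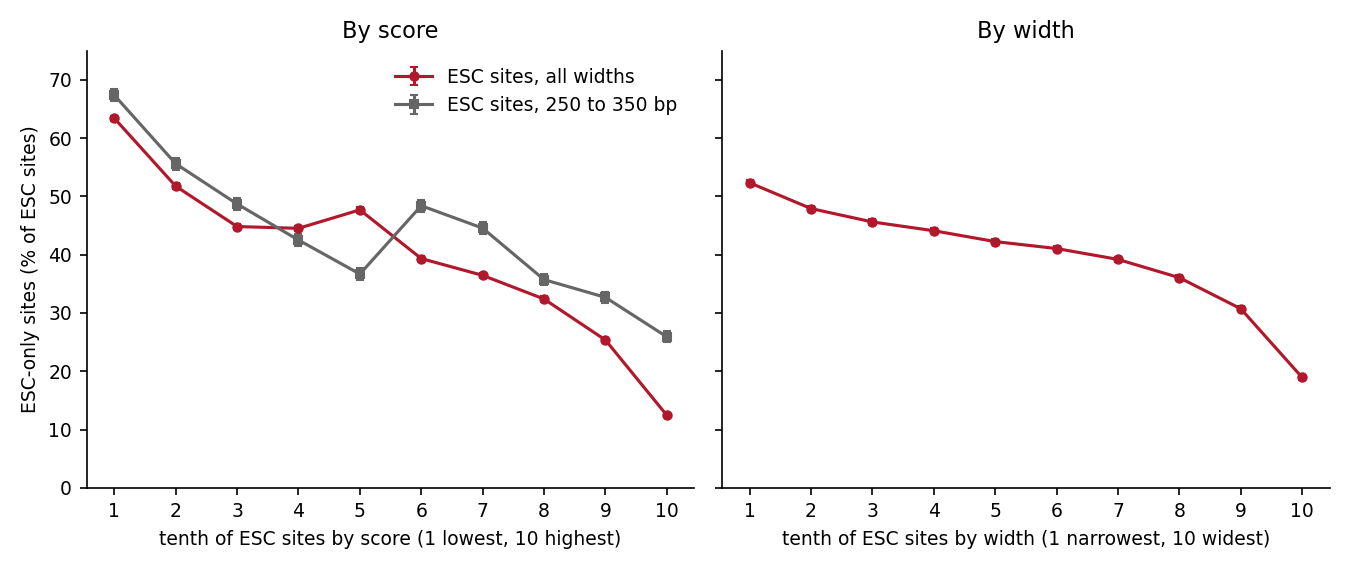
Share of ESC sites that are ESC-only (y axis, percent) in 10 classes of equal size by score (left, for all ESC sites in red and sites of 250 to 350 bp in grey) and by width (right); bars are exact 95% intervals, which cover counting error only. By score the share is 63.4% in the lowest and 12.5% in the highest class, with a second maximum in the middle classes.

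Most ESC-only regions had a site of another list within 1 kb, as did most EpiSC-only, NSC-only and MEF-only regions. The 3 other lists together hold 1363608 autosomal sites, and no chance level was computed for these gaps. The median gap to the nearest site of any other list was 630 bp, 65.3% of regions had one within 1 kb, and 1016 (0.581%) had none within 10 kb. The same measures were 591 bp and 66.6% for EpiSC-only regions, 772 bp and 58.0% for NSC-only and 772 bp and 57.6% for MEF-only regions, of which 2.78% had none within 10 kb. By cell type, EpiSC sites were nearest to ESC-only regions although that list is the shortest. The median gap was 1416.5 bp (quartiles 567 and 3150) to EpiSC, 1690 bp to NSC and 2110 bp to MEF, and 39.4%, 35.2% and 28.7% of ESC-only regions had a site of these lists within 1 kb. With the NSC and MEF lists cut to the length of the EpiSC list (387312 highest-scoring sites each), a setting chosen after seeing the data, the medians were 2969 bp to NSC and 2452 bp to MEF, so that MEF was then nearer than NSC. The median score was 2.99 for regions under 50 bp from another list, 2.79 for those 500 bp to 1 kb away, 2.72 for those 2 to 5 kb away, 2.85 for those 5 to 10 kb away and 3.22 beyond that.

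**Figure D3:**
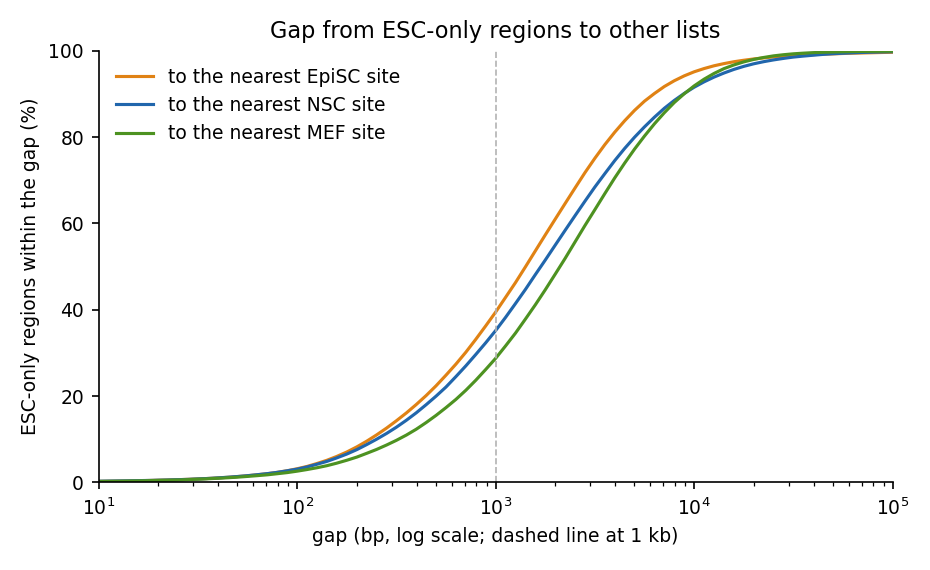
Percentage of the 174760 ESC-only regions (y axis) that have a site of the EpiSC, NSC or MEF list within a given gap (x axis, bp, log scale). At 1 kb, marked by the dashed line, the curves stand at 39.4% for EpiSC, 35.2% for NSC and 28.7% for MEF.

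The rule has a sharp edge, and these are the values on either side of it. The 6529 ESC-only regions under 50 bp from another list had a median score of 2.99 and a median width of 321 bp. The 6569 ESC sites whose longest overlap with another list was under 50 bp, and which were left out for that reason, had 3.02 and 296 bp.

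ESC-only regions were clustered. The median gap to the nearest other ESC-only region was 1855 bp, and 35.9% (35.7 to 36.2) had one within 1 kb. In EpiSC-only regions the gap was 4762.5 bp and 16.9% had one within 1 kb, in MEF-only regions 3034 bp and 24.0%, and in NSC-only regions 1676 bp and 37.3%. These gaps also depend on the number of regions, and NSC-only regions were the most numerous. In genome order, 29.5% of the regions flanking an ESC-only region were ESC-only too, or 1.90 times their share of all regions. The ratio was 1.56 for EpiSC-only, 1.52 for NSC-only and 1.70 for MEF-only regions next to their own kind. By this ratio regions of ESC and EpiSC together came next, at 1.72 times (9.44% of flanks). Every other class that held ESC sites was also over-represented, from 1.06 times (ESC, NSC and MEF) to 1.56 times (ESC and MEF). NSC-only regions (0.55 times), MEF-only regions (0.64 times) and regions of both somatic lists (0.46 times) were under-represented. So were regions of EpiSC with NSC (0.70 times), with MEF (0.81 times) or with both (0.55 times). EpiSC-only regions were at 1.02 times. No chance level other than the share of all regions was computed.

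In 100-kb windows, the number of ESC-only regions went up and down with that of other ESC-holding regions. Across the 23717 autosomal windows with a site of any list, the Spearman correlation between the number of ESC-only regions and that of regions shared by ESC and EpiSC alone was 0.77. With the number open in all 4 lists it was 0.61, and with EpiSC-only regions 0.41. It was negative for NSC-only (-0.20), MEF-only (-0.31) and NSC with MEF (-0.16). Windows are not replicates, they share the same 4 libraries, and the values are a description. The 10% of windows richest in ESC-only regions held 32.8% of them, against 26.6% for EpiSC-only, 29.6% for NSC-only and 24.9% for MEF-only regions in their own richest windows, and 3788 windows (16.0%) held none, against 8.27%, 3.10% and 3.52%. The share of ESC-holding regions that were ESC-only was highest where sites were sparse. It was 55.8% in windows with 1 or 2 ESC-holding regions, 41.1% in those with 11 to 20 and 44.6% in those with 41 or more. The median width was larger in each denser class of windows, at 383 bp with 41 or more ESC-holding regions, against 227 bp with 1 or 2. The median score was 3.07 with 41 or more, 2.79 with 31 to 40, 2.59 with 11 to 20 and 2.76 with 1 or 2, so that it was lowest at intermediate density.

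ESC-only regions were spread unevenly over the chromosomes, with chromosome 8 far in front. It held 14775 of them, or 112 per Mb, which is 1.63 times the median autosome. Chromosome 5 was next at 1.19 times (82.0 per Mb), and chromosome 14 was lowest at 0.74 times (51.2 per Mb). The high density on chromosome 8 was not limited to ESC-only regions. All ESC sites together stood there at 1.47 times their median autosome, and were denser only on chromosome 11. Regions of ESC and EpiSC alone also stood at 1.47 times on chromosome 8. EpiSC-only regions stood there at 0.86, NSC-only at 0.79 and MEF-only at 0.95 times. The density of ESC-only regions on chromosome 8 was not that of a single place. Its 129 bins of 1 Mb had a median of 115 ESC-only regions, against 55 on the other autosomes. Of the 100 densest bins of the genome, 25 lay on chromosome 8. Of the 129 bins, 90 (69.8%) were above that median of 55. On chromosome 11, the next in this respect, 67.2% of bins were. The median width on chromosome 8, 350 bp, was the highest of the 19 autosomes, whose median was 328 bp, and chromosome 5 was next at 339 bp. The median score on chromosome 8 was 2.86, against a median of 2.84 over the 19 autosomes.

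The share of ESC-holding regions that were ESC-only ranged from 34.4% on chromosome 11 to 49.3% on chromosome 18. Chromosomes 19 (37.0%) and 17 (38.5%) were also low, and chromosomes 12 (48.4%), 8 (47.3%) and 6 (47.1%) high. EpiSC sites were densest on chromosome 11, at 1.76 times the median autosome, and sparsest on chromosomes 12 (0.68 times) and 18 (0.70 times). On chromosome 8, with its high share, EpiSC sites stood at 1.09 times. A region counts as ESC-only where no other list has a site, so the share also depends on the density of the other lists. The differences between chromosomes are given as a description alone, and their cause was not tested. The median score varied little, from 2.77 on chromosome 6 to 2.95 on chromosome 18.

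**Figure D4:**
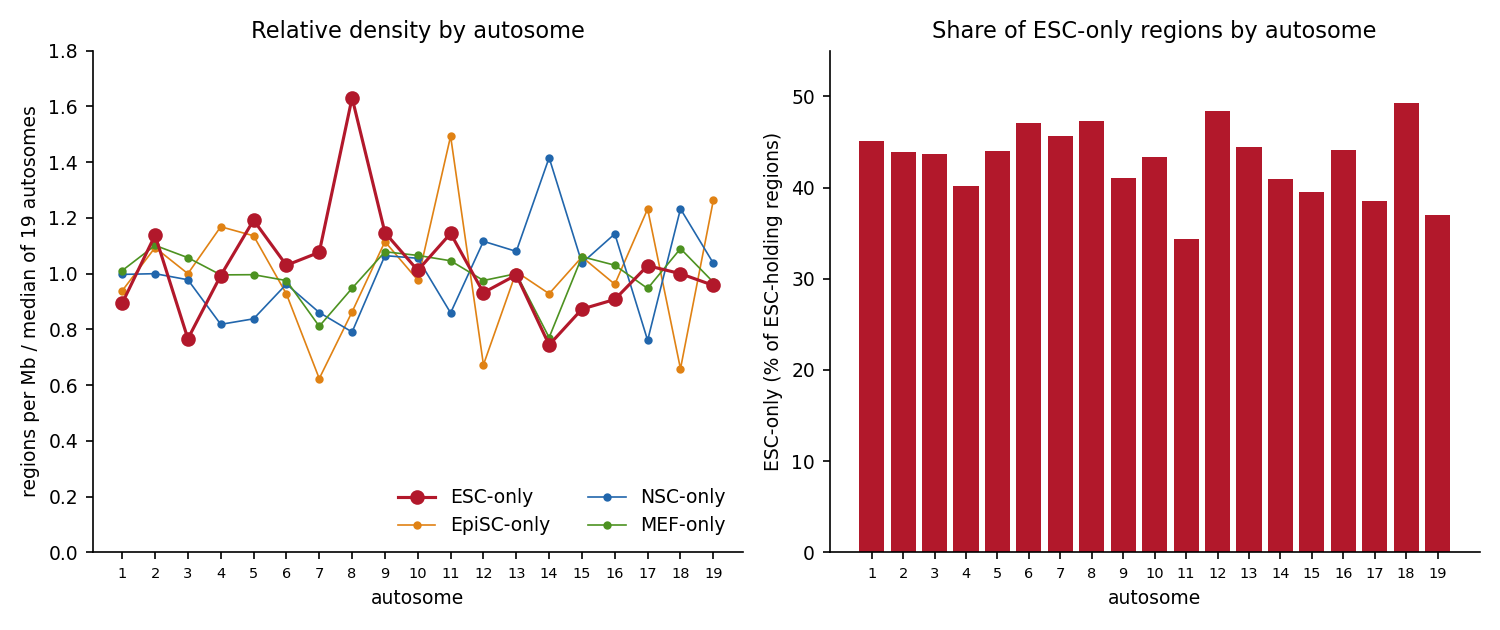
Left, regions per Mb over the median of the 19 autosomes (y axis) for each autosome (x axis), for ESC-only (red), EpiSC-only (orange), NSC-only (blue) and MEF-only regions (green). Right, share of ESC-holding regions that are ESC-only (y axis, percent) for each autosome (x axis). ESC-only regions stand at 1.63 on chromosome 8, and the share is lowest on chromosome 11, at 34.4%.

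Along the chromosomes ESC-only regions were more frequent towards the distal end. The last 10% of each autosome, from its first to its last site, held 14.7% of ESC-only regions and the first 10% held 7.82%. Regions of ESC and EpiSC alone were similar (16.0% and 7.09%), as were those of all 4 lists (13.9% and 6.92%). EpiSC-only (12.2% and 8.71%) and NSC-only regions (9.92% and 8.03%) differed in the same direction, by less. MEF-only regions were the reverse, with 7.43% in the last and 10.7% in the first 10%. On 15 of the 19 autosomes the last 10% held over 10% of the ESC-only regions, with a range from 6.87% on chromosome 17 to 20.8% on chromosome 15.

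The 100-kb windows with the most ESC-only regions, in mm9 coordinates, lay on chromosomes 1, 5 and 18. Chromosome 1 from 39500001 to 39600000 held 53 ESC-only regions with a median score of 4.06, among 77 regions in all. EpiSC had 15 sites there, NSC 15 and MEF 10, against 66 of ESC. Chromosome 5 from 75900001 to 76000000 held 48 among 92 regions, and chromosome 18 from 75400001 to 75500000 held 47 among 75. These windows held sites of the other cell types too. In the longest run of ESC-only regions with gaps of at most 1 kb, 11 regions on chromosome 8 from 18472990 to 18484204 covered 60.4% of 11215 bp, with a median score of 4.40. Of the runs of 10, the most compact lay on chromosome 18 from 75465766 to 75474375, inside the window named on that chromosome, and on chromosome 3 from 154049546 to 154058705. Sites of other lists could lie between the regions of a run. The run on chromosome 8 held 1 MEF site and that on chromosome 3 held 1 NSC site, while that on chromosome 18 held none. Runs of 5 or more were few, with 723 runs and 4102 regions, whereas 111941 regions had no ESC-only neighbour within 1 kb.

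ESC-only regions also followed each other with no region of any other kind between them, a measure added after the data were seen. Stretches of 5 or more such regions numbered 1758 and held 10500 regions (6.01% of ESC-only regions), with a median span of 7102 bp. With sites under 200 bp apart merged, the number of stretches was 862. NSC-only regions had 4631 such stretches (11.6% of regions), MEF-only 1929 (6.56%) and EpiSC-only 250 (1.21%). These values also depend on how common each kind was. NSC-only regions made up 23.4% of all regions, MEF-only 16.2%, ESC-only 15.6% and EpiSC-only 10.6%. Of the ESC stretches, 59 had 10 or more regions, and 12 of these lay on chromosome 8, 8 on chromosome 12 and 6 each on chromosomes 7 and 18. Of all 174760 ESC-only regions, chromosome 8 held 14775, chromosome 12 held 7770, chromosome 7 held 11293 and chromosome 18 held 6242. The longest, of which there were 2, had 22 regions each. On chromosome 13, from 62301834 to 62388657, they covered 7.89% of 86824 bp with a median score of 3.70 and a highest score of 14.6. On chromosome 12, from 19294133 to 20230108, they were spread over 935976 bp and covered 0.541% of it, with a median score of 5.35. The next, 18 regions on chromosome 8 from 44384736 to 44416073, was compact, covering 37.3% of 31338 bp with a median score of 7.69. Another 18 on chromosome 13, from 65449883 to 66092245, covered 0.343% of 642363 bp. The longest stretches thus included both compact blocks and scattered sites in long tracts.

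**Figure D5:**
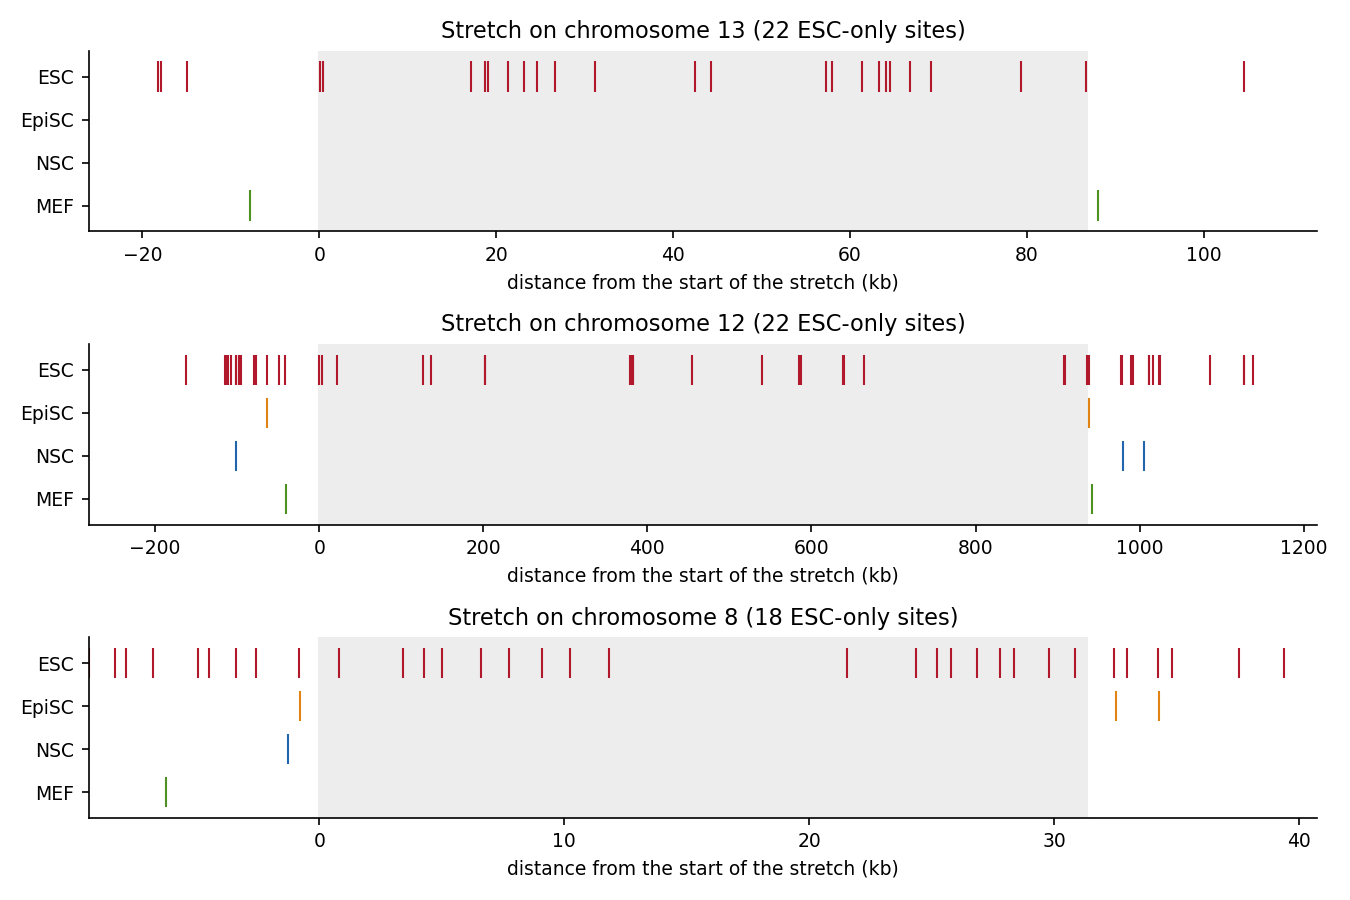
Sites of each list (rows, 1 vertical line per site at its midpoint) in and around the 3 longest stretches of consecutive ESC-only regions, by distance from the start of the stretch (x axis, kb); the grey band is the stretch and shows ESC sites alone. The stretches span 86824 bp on chromosome 13, 935976 bp on chromosome 12 and 31338 bp on chromosome 8.

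Windows with 5 or more ESC-only regions and no site at all of another list were rare. There were 8 among the 11784 windows with 5 or more ESC-only regions, and together they held 61. They lay on chromosome 12 (4 windows, between 18300001 and 20900000), chromosome 13 (65600001 to 65700000 and 66700001 to 66800000), chromosome 7 (50000001 to 50100000) and chromosome 2 (176800001 to 176900000), a choice made after the data were seen. In these windows the ESC-only regions had median scores from 3.55 to 6.73. Whatever the remaining lists held, 51 windows with 5 or more ESC-only regions had no EpiSC site, 66 no NSC site and 30 no MEF site. Each of these counts includes the 8. The windows held 445, 1053 and 265 ESC-only regions in the same order. How many of all windows lacked each list is not given here, so the counts say nothing particular to ESC-only regions.

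The ESC-only regions with no other list within 10 kb are given here beside those closest to another list. These 1016 regions had a median score of 3.22 and a median width of 227.5 bp, with a median of 5 ESC-holding regions in their window. ESC-only regions within 50 bp of another list had 2.99, 321 bp and 34. A region far from other lists tends to lie in a sparse window, so the last of these values is linked to the choice. All ESC-only regions in windows with 1 or 2 ESC-holding regions had a median width of 227 bp and a median score of 2.76. Of the 1016 regions, 145 lay on chromosome 7, 139 on chromosome 12 and 110 on chromosome 13, which together are 38.8% of them. They made up 1.28%, 1.79% and 1.34% of the ESC-only regions of these chromosomes, against 0.581% over all autosomes. The most isolated lay on chromosome 12 from 24485634 to 24486050, with a score of 17.2 and 622608 bp to the nearest site of another list.

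The highest-scoring ESC-only regions were of mixed kinds. On chromosome 13, the site from 66781861 to 66781939 (score 34.6, 79 bp wide) and that from 65516061 to 65516201 (32.8, 141 bp) lay 88911 and 78996 bp from any other list, both inside stretches of consecutive ESC-only regions. On chromosome 10, the site from 70303975 to 70304367 (31.2, 393 bp) was 735 bp from an NSC site in a window with 46 ESC-holding regions. On chromosome 8, from 107104446 to 107104813 (28.1, 368 bp), the nearest other site was an EpiSC site 1258 bp away. The fifth, on chromosome 4 from 145593774 to 145593906 (27.8, 133 bp), was the only ESC-holding region of its window and lay 62992 bp from an NSC site. Of the 100 highest-scoring ESC-only regions 19 were under 200 bp wide, against 19.4% of all ESC-only regions, and 11 lay on chromosome 8, against 8.45%, so that both were near the overall share.

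The widest ESC-only regions were none of the highest-scoring. The first 3 lay on chromosome 8, from 119716109 to 119723182 (7074 bp, score 7.77), from 14917953 to 14924637 (6685 bp, 6.55) and from 122876117 to 122882601 (6485 bp, 5.825). The others were on chromosome 15 from 76009940 to 76015661 (5722 bp, 5.71) and on chromosome 7 from 29360540 to 29366081 (5542 bp, 7.74). They lay in windows with 33 to 53 ESC-holding regions, and the first, in the densest bin of 1 Mb of all (313 ESC-only regions from 119000001 to 120000000), was 3449 bp from the nearest EpiSC site.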

How the data were processed

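FAIRE-seq lists of 4 cell types were used. The labels' protocols describe PCR amplification, selection on agarose gels and sequencing on a Genome Analyzer. The submitters' processing notes name CASAVA 1.8 and the build mm9. The deposited lists give the position of each site, a score by the authors and a display value; that display value was within 1 of the score times 100, with a ceiling of 1000, and was not used. The sources used here do not give how the score was made, the aligner, the thresholds, the role of the control or any pooling of replicates; the lists' names hold the word qeseq. The authors' scores were never compared between lists.

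Starts were read as 0-based and are printed 1-based. Sites sharing 1 bp or more were merged. Gaps are the bases between neighbouring intervals. Intervals of shares are exact 95% binomial ones (Clopper-Pearson), and neighbouring sites are not independent. Relative density is the number of regions per Mb (to the end of the last site on the chromosome), divided by the median autosome's. Windows of 100 kb count regions by midpoint. The members, lists and measures were chosen with earlier results of these data known.

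By rule, the regions named are the 5 with the highest score, the 5 widest, the 3 windows with the most ESC-only regions and the 3 longest runs; naming those with the most ESC sites was void, since each held 1. Stretches, isolated regions and windows without other lists were added after the data were seen. Planned annotation with genes, sequence content, motifs and gene lists were not run, because no genome or annotation of mm9 was used here. Python 3.11.15 was used, with pandas 2.3.3, numpy 2.4.6, matplotlib 3.10.9 and scipy 1.17.1. Merging and gaps were tested on simulated data, and bedtools 2.31.1 gave the same 174760 regions.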

Additional observations from a re-analysis of the deposited data

Results flagged for a closer look

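Chromosomes X and Y lie outside the autosomal rule, and ESC-only regions there are given as values. They numbered 2130 on chromosome X, or 72.3% of its 2946 ESC-holding regions. The ESC list had 2992 sites on chromosome X, against 0 of EpiSC, 4219 of NSC and 7244 of MEF. With no EpiSC site there, the rule left out no region for EpiSC, so the number and share are set in part by that absence and are not comparable with the autosomes. On chromosome Y there were 59 ESC-only regions among 61 that held ESC sites, with 20 sites of MEF and 0 of EpiSC and NSC.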

How the results depend on the processing

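No paired analysis was possible because only 1 list per cell type was at hand and no replicate was there to leave out. Unknown depth limits comparisons of region numbers between lists. The planned annotation, sequence, motif and gene-list results were not run. Of 63 values under the alternatives, 15 stayed within their interval (within 1.5 times for counts) and 48 moved; intervals cover counting alone and are narrow. Stretches were not computed with the overlap of 50%. Fewer sites and wider merging move values by construction; for the other changes the cause was not tested.

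Merging sites under 200 bp apart gave an ESC-only share of 36.3% of ESC-holding regions, a median width of 331 bp, a median score of 2.80, 25.9% within 1 kb of another ESC-only region, a relative density of 1.54 on chromosome 8, median gaps of 1697 bp to EpiSC, 1967 bp to NSC and 2376 bp to MEF, shares of 8.96% in the highest-scoring and 50.1% in the lowest-scoring class, and 862 stretches of 5 or more. Requiring an overlap of 50% of the shorter site gave an ESC-only share of 44.9% of ESC sites, not of regions. The main rule gave 39.8% of ESC sites. The other values with this overlap were 335 bp, 2.87, 37.8% within 1 kb, gaps of 1295, 1539 and 1947 bp, and class shares of 14.3% and 69.7%. With the 50% of sites with the highest scores there were 115718 ESC-only regions (55.8%), with 429 bp, 5.11, 33.0% within 1 kb, 1.53 on chromosome 8, gaps of 2906, 4141 and 4879.5 bp, and class shares of 19.3% and 68.0%. Lists of equal length gave 45.3%, 319 bp, 3.27, 33.8% within 1 kb, 1.54 on chromosome 8, gaps of 2743 bp to NSC and 2346 bp to MEF, and class shares of 13.4% and 58.1%. Without chromosome 8 the share was 42.8%, with 35.3% within 1 kb, 2086 bp to MEF and 12.1% in the highest-scoring class. The alternatives added after the data were seen gave 2969 bp to NSC and 2452 bp to MEF with those lists shortened, and 25.9% and 67.4% in the highest-scoring and lowest-scoring class at 250 to 350 bp.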
